A study of Vitis amurensis with 6 samples.

Results

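A set of 2356 chromatin sites was open in all 6 ATAC-seq libraries from leaves of Amur grape (Vitis amurensis) but had a moderate score in at least 1 of them. Sites called in the 6 libraries were pooled, those sharing at least 1 bp were merged into regions, and regions on chromosomes 1 to 19 with a site from every library were called always-open. The score used here is that of the best site of a library in the region, and a region was taken as moderate when this score fell below 50 in at least 1 library. The 2356 moderate regions made up 83.0% of the 2837 always-open regions, 5.93% of the 39746 regions on chromosomes 1 to 19 and 5.27% of the 44710 regions on all sequences. The other 481 always-open regions scored 50 or more in every library and are called strong regions. Most moderate regions lay well under the limit, since 2044 of them (86.8%) were below 50 in all 6 libraries. Only 312 (13.2%) were below it in 1 to 5 libraries, 50 of them in 1 library alone.

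ATAC-seq uses a transposase that cuts DNA and adds adapters where chromatin is not tightly packed. Such places, seen as piles of mapped fragments, are named transposase hypersensitive sites (THSs). In plants such sites mark promoters, enhancers and other DNA that regulatory proteins can reach, and many of them stay open whatever the condition. The score of a THS measures how surely the pile-up stands above background, so it grows with both openness and the number of reads.

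The plants were wild-type V. amurensis, grown in vitro from cuttings for 1 month, and the tissue was leaf. Control plants were sampled at 0 h from 26°C (3 libraries), and cold plants were sampled after 2 h in a chilled incubator at 4°C (3 libraries), with the same light in both groups. According to the study, each library pooled leaves of several plants, and the comparison asks which sites change in early cold response. A 26°C library at 2 h was not among those analysed here, so the effects of cold, of time and of handling cannot be told apart.

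The lists held between 13019 and 19537 THSs per library, and carry no read numbers. Read totals stated by the study were not used, so no score was set against depth and the part of depth in the results was not tested. Cold replicates 2 and 3 stood apart in the shape of their sites. Their narrowest THSs were 111 and 106 bp wide and their median widths were 184 and 171 bp. In control replicates 1, 2 and 3 and cold replicate 1 the narrowest THS was 199 to 217 bp and the median width was 341 to 384 bp. These 4 libraries are called long-limit libraries and cold replicates 2 and 3 short-limit libraries. The short-limit libraries are both cold, so limit and cold cannot be told apart in them. The differences between the groups in width, THSs per region and percentile are therefore given with and without the short-limit libraries. So are the counts of regions lower or higher by percentile. Counts by width, by score, by rank and within subsets of the moderate regions were made in all 6 libraries only.

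The moderate regions were of middling strength in every library, though far above its typical THS. Their median scores were 13.2, 12.9 and 9.82 in control replicates 1, 2 and 3 and 9.44, 10.7 and 8.32 in cold replicates 1, 2 and 3, while the median over all THSs of a list was 3.77 to 4.86. The interquartile range of moderate regions was 7.65 to 25.7 in control replicate 1 and 4.71 to 17.0 in cold replicate 3, the libraries with the highest and the lowest median. The strong regions had median scores of 243 to 334. The members were chosen by these scores, which are therefore given as a description with no test. A minority of moderate regions were weak within a library. Between 75 (3.18%, control replicate 2) and 495 (21.0%, cold replicate 3) of them scored below the median of the list. The score of a region is that of its best THS, which raises it against a median over single THSs. Cold replicate 3 gave the lowest of the 6 scores most often, in 864 regions (36.7%), and control replicate 2 gave the highest most often, in 698.

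**Figure D1:**
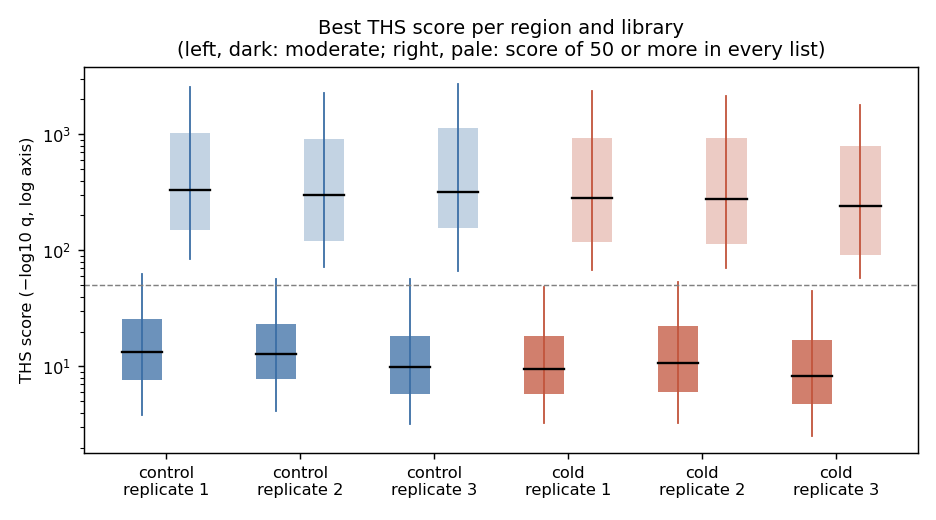
Score of the best THS per region (−log10 q, log axis) in each of the 6 libraries, for the 2356 moderate regions (left, dark) and the 481 strong regions (right, pale), with the median as a black line, the interquartile range as a box and the 5th to 95th percentile as a thin line. The dashed line marks the limit of 50, and the moderate medians sit between 8.32 and 13.2 in all 6 libraries.

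The moderate regions took a smaller part of the lists of control replicates 1 and 2 than of the other 4. They held 2546, 2510 and 2594 THSs in control replicates 1, 2 and 3 and 2621, 3194 and 3186 in cold replicates 1, 2 and 3. These were 13.6, 12.8 and 19.9% of the THSs of the control lists and 19.6, 20.4 and 22.9% of those of the cold lists. In length they covered 1940, 1980 and 1629 kb in the control libraries and 1660, 1094 and 944 kb in the cold libraries, or 20.6 to 30.1% of the length listed. Since every list has a THS in every moderate region by the rule, the share depends on the length of the list by construction.

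Regions at the limit were strong sites with 1 or 2 lower libraries. The 4 just inside it had lowest scores of 49.1 to 49.9. In chr15:16434914-16435845 (grape 12X genome, version 2.1, here and for all coordinates) the scores were 69.2, 77.2 and 49.9 in control and 72.0, 108 and 80.0 in cold, so that control replicate 3 alone fell under 50. In chr9:12463171-12464796 control replicate 3 was again the low library, with 49.5 against 105.3 and 80.5 in the other control libraries and 72.4, 86.7 and 54.7 in cold. In chr16:3679107-3682246 it was cold replicate 3 (49.4), and in chr3:9855341-9855658 both short-limit libraries (49.4 and 49.1). The 4 just outside, chr14:19009452-19009726, chr8:9824742-9827743, chr19:21459491-21460066 and chr19:699814-701500, had lowest scores of 50.0 to 50.5. Scores thus ran on across the limit without a gap.

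At the other end stood sites that barely passed the authors' q threshold of 0.05, which is 1.301 on this scale. The lowest score over the 6 libraries had a median of 5.90 among the moderate regions, with a interquartile range of 3.58 to 12.03, and the smallest value was 1.37. That smallest value was shared by 8 regions, in each case in cold replicate 3. The first 6 of them by position were chr2:7863854-7864520, chr4:9836600-9838165, chr11:13340165-13341163, chr12:15269308-15269797, chr13:21379436-21380082 and chr15:4673782-4674654. In chr2:7863854-7864520 the site was weak throughout, with scores of 2.58, 4.53 and 3.74 in control and 2.73, 2.83 and 1.37 in cold. In chr11:13340165-13341163 the other libraries were higher, with 12.4, 5.62 and 11.03 in control and 7.87 and 8.87 in cold replicates 1 and 2. A low score in 1 library therefore came both with weak sites and with sites of ordinary score in the other libraries.

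Scores were not scaled between libraries, so each THS was also given its percentile among all THSs of its list. The percentile of a moderate region varied over the 6 libraries by a median of 22.4 points (interquartile range 11.6 to 39.5, whole range 1.86 to 88.8). In the strong regions, which lie against the top of every list, the median was 1.28 points. The highest score of a moderate region was a median of 2.63 times its lowest. The ordering of the regions was shared between libraries, with Spearman's rho across the 2356 regions of 0.802 to 0.841 between control libraries, 0.814 to 0.836 between cold replicate 1 and the control libraries and 0.828 between cold replicates 2 and 3. It was 0.707 to 0.781 between a short-limit library and a control library, and 0.764 and 0.743 between cold replicate 1 and cold replicates 2 and 3. By this measure cold replicate 1 lay nearer to the control libraries than to the other cold libraries. These correlations are across regions, which share libraries and are not replicates.

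The moderate regions with the narrowest ranges lay high in every list, where a large difference in score moves the percentile little. The narrowest belonged to chr18:12447804-12448081, a compact site with scores of 60.6, 47.7 and 69.1 in control and 57.4, 60.3 and 57.6 in cold. Its percentiles were 94.99, 94.9 and 93.6 in control and 93.7, 93.1 and 93.2 in cold, and its THS was 275, 274 and 277 bp wide in control and 278, 242 and 276 bp in cold. The next in order, chr3:12947886-12948458, chr18:15699046-15699402, chr2:11481904-11483057 and chr17:3441754-3442006, had ranges of 2.40 to 2.52 points. Among them chr18:15699046-15699402 kept percentiles of 86.6 to 89.1 at scores of only 17.5 to 29.6. In chr3:12947886-12948458 the range was narrow although the scores ran from 26.9 to 66.1.

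The widest range belonged to chr17:12491501-12491999, with scores of 13.2, 21.4 and 4.36 in control and 4.45, 2.25 and 1.37 in cold. Its percentiles were 84.4, 90.7 and 50.6 in control and 57.5, 9.50 and 1.81 in cold, so the groups overlapped through control replicate 3 and cold replicate 1. The other wide ranges, of 84.5 to 86.9 points, were in chr14:9837476-9838147, chr13:21379436-21380082, chr15:4673782-4674654, chr19:2524653-2525533 and chr15:4782975-4783618. In all 6 regions the lowest percentile was that of a short-limit library and the highest that of control replicate 2. In chr14:9837476-9838147 cold replicate 2 stood alone, with a percentile of 5.999 against 76.9 to 92.9 in the other 5 libraries.

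The percentile of the moderate regions had a lower mean in the cold lists than in the control lists. A percentile depends on how many weak THSs a list holds. Control replicates 1 and 2 had the longest lists (18770 and 19537 THSs against 13019 to 15694 in the other 4). Cold replicate 2 had a longer list and a higher median score of moderate regions than control replicate 3, but a lower median percentile. The part of list length in the percentiles was not tested. The median percentile was 84.4, 85.9 and 78.2 in control replicates 1, 2 and 3 (82.8 ± 4.05, SD, n = 3) and 78.7, 74.4 and 70.5 in cold replicates 1, 2 and 3 (74.5 ± 4.11, SD, n = 3). The groups overlapped, since cold replicate 1 lay above control replicate 3. The difference of the means was -8.28 points, given with no test because the score chose the members. In the 4 long-limit libraries alone it was -4.08 points, with cold replicate 1 inside the control range.

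Region by region, all 3 cold percentiles lay below all 3 control percentiles in 592 moderate regions (25.1%) and above them in 7 (0.297%). Over all 2837 always-open regions, of which the moderate ones are 83.0%, the shares were 26.0% and 0.247%, so the moderate regions were close to the background in both directions. By the deposited score in place of the percentile, 359 moderate regions (15.2%) were lower in every cold library and 31 (1.32%) higher, against 14.4% and 1.09% of all always-open regions. When each region was ranked only among the always-open regions of its library, 154 (6.54%) were lower and 159 (6.75%) higher, against 6.20% and 6.98% of all always-open regions. Such ranks have the same sum in every library, so a fall shared by all always-open regions cannot show in them. The moderate regions are 83.0% of those ranked. The fixed sum does not set the counts of lower and higher regions, which were 22 (4.57%) and 39 (8.11%) among strong regions. Of the 592 regions lower by percentile, 145 were also lower by this rank, and the 7 higher by percentile were all higher by it.

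The count of lower regions depended on single libraries. It was 1427 without control replicate 3 and 1150 without cold replicate 1, the control and the cold library that lay nearest to the other group, and 646 to 727 without each of the others. The count of higher regions was 35, 43 and 9 without control replicates 1, 2 and 3 and 38, 11 and 22 without cold replicates 1, 2 and 3. Fewer libraries let more regions pass by construction. Within the control group itself, control replicate 3 lay below both other control libraries in 1710 moderate regions (72.6%). Cold replicate 1 was inside the control range in 1324 regions (56.2%), below it in 906 (38.5%) and above it in 126. Cold replicates 2 and 3 were below the control range in 1335 (56.7%) and 1533 (65.1%). Counts without a library and counts against the control range were not made over all always-open regions. They are therefore not read as particular to the moderate regions.

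The region with the widest drop between the groups was chr16:5021564-5022739. Its scores were 10.1, 11.4 and 9.40 in control and 2.73, 2.83 and 2.52 in cold, and its percentiles were 80.3, 84.3 and 77.6 in control and 29.8, 21.1 and 22.4 in cold. The highest cold percentile was 47.8 points below the lowest control one, all 3 cold libraries including the long-limit cold replicate 1 were low, and the region also had the widest gap downward by rank among always-open regions. It held 1 THS in every library, with a stretch of 114 bp common to all 6. In chr9:9530450-9531582 the scores were 6.98, 6.70 and 6.86 in control and 3.22, 3.26 and 2.41 in cold, a gap of 32.1 points in percentile. There the controls were almost level and all 3 cold libraries were lower. The next, chr7:10764673-10765398, chr15:1307871-1308912 and chr13:19407866-19409731, had gaps of 30.5, 29.8 and 28.2 points.

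By percentile, the regions that stood higher in every cold library had smaller gaps. The widest was in chr2:2862426-2863632, where the scores were 3.06, 4.53 and 4.36 in control and 5.75, 12.5 and 9.59 in cold. The lowest cold percentile was 6.53 points above the highest control one. The THS there was 291, 819 and 524 bp wide in control and 795, 1156 and 1054 bp in cold, so the short-limit libraries, narrow elsewhere, had the widest THSs in this region. In chr16:1506218-1506601 the scores were 6.31, 3.10 and 2.31 in control and 8.27, 13.5 and 9.52 in cold (gap 4.55 points). In chr2:6910522-6911217 they were 10.1, 5.06 and 7.10 in control and 15.2, 29.6 and 20.7 in cold (gap 4.25 points). By rank among always-open regions the last had the widest gap upward of all moderate regions, 25.5 points. The widest gap downward by that rank was of like size, 27.3 points, so the smaller gaps upward belong to the percentile. The remaining 4 were chr14:10777155-10778425 and chr17:10213936-10214691, with gaps of 5.12 and 4.41 points, and chr17:14913831-14914358 and chr12:21071129-21071803, with gaps of 2.63 and 1.73 points and named after their values were seen.

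**Figure D2:**
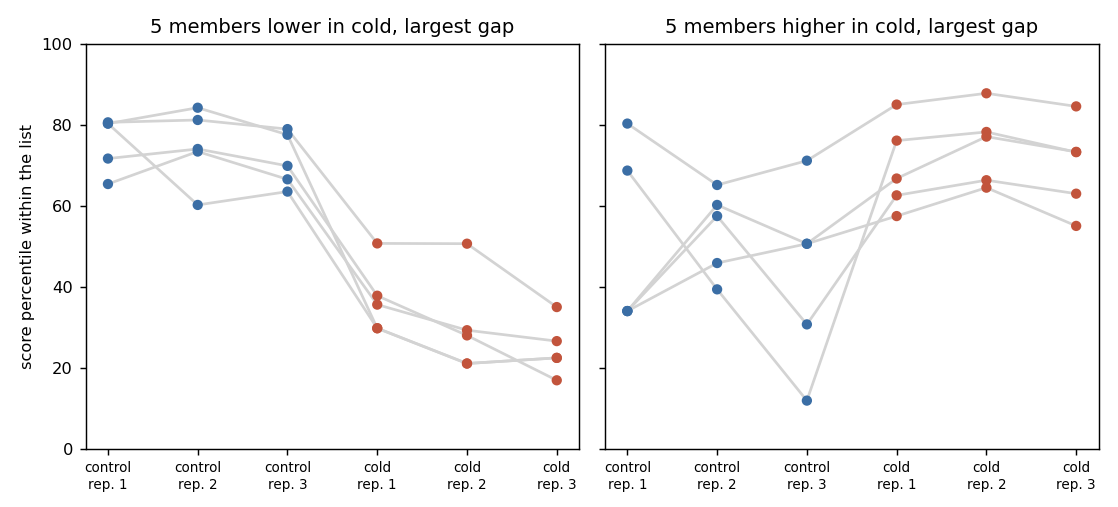
Percentile of the best THS within its list, per library, for the 5 moderate regions with the widest gap downward in cold (left) and the 5 with the widest gap upward (right), with blue points for control, red points for cold and grey lines joining the values of a region. By percentile, the gaps are 28.2 to 47.8 points on the left and 4.25 to 6.53 points on the right. By rank among always-open regions the widest gaps were 27.3 points downward and 25.5 points upward.

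Ranking among always-open regions, an ordering chosen after the data were seen, brought out other regions. Downward in cold, after chr16:5021564-5022739 (gap 27.3 points of rank), came chr2:14230948-14232788 (24.0), chr7:5301157-5302331 (23.9) and chr11:15008293-15009465 (22.4). In chr7:5301157-5302331 the scores were 19.7, 21.4 and 14.7 in control and 7.44, 6.38 and 5.52 in cold. Upward, after chr2:6910522-6911217, came chr13:9489657-9491043 (22.6), chr17:14913831-14914358 (22.1) and chr16:1506218-1506601 (21.9). In chr17:14913831-14914358 the scores were 6.57, 6.80 and 6.37 in control and 10.97, 27.3 and 12.03 in cold, so that the 3 controls were level and cold replicate 2 was the highest. These 8 regions were picked for their gaps, so their values are a description.

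The THSs of moderate regions were broad. Their median width was 664, 676 and 524 bp in control replicates 1, 2 and 3 and 547, 298 and 260 bp in cold replicates 1, 2 and 3, which was 1.51 to 1.78 times the median of each list. The control mean was 621 ± 84.3 bp and the cold mean 368 ± 156 bp (SD, n = 3 each). The difference of -253 bp did not pass the test (two-sided exact permutation p = 0.2, and 0.2 after adjustment over the 2 measures tested), and 3 libraries against 3 cannot give a p below 0.1. The groups overlapped, with cold replicate 1 above control replicate 3. In the 4 long-limit libraries the difference was -74.2 bp, from 1 cold library. As a ratio to the median of the list, the difference was -0.102 (exact permutation p = 0.4), the median widths of the whole cold lists being lower as well. Region by region, the THS was narrower in every cold library than in any control library in 630 moderate regions (26.7%) and wider in 7 (0.297%), against 25.3% and 0.634% of all always-open regions.

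Width set moderate and strong regions apart in a manner that turned with the library. In the 4 long-limit libraries the moderate THSs were the wider, with 1.08 to 1.36 times the strong median of 484 to 499 bp. In cold replicates 2 and 3 they were the narrower, with 0.801 and 0.734 times the strong medians of 372 and 354 bp. From the long-limit to the short-limit libraries the strong sites thus kept more of their width. The score that divides both classes comes from the same calls as the width, so this contrast was not tested.

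**Figure D3:**
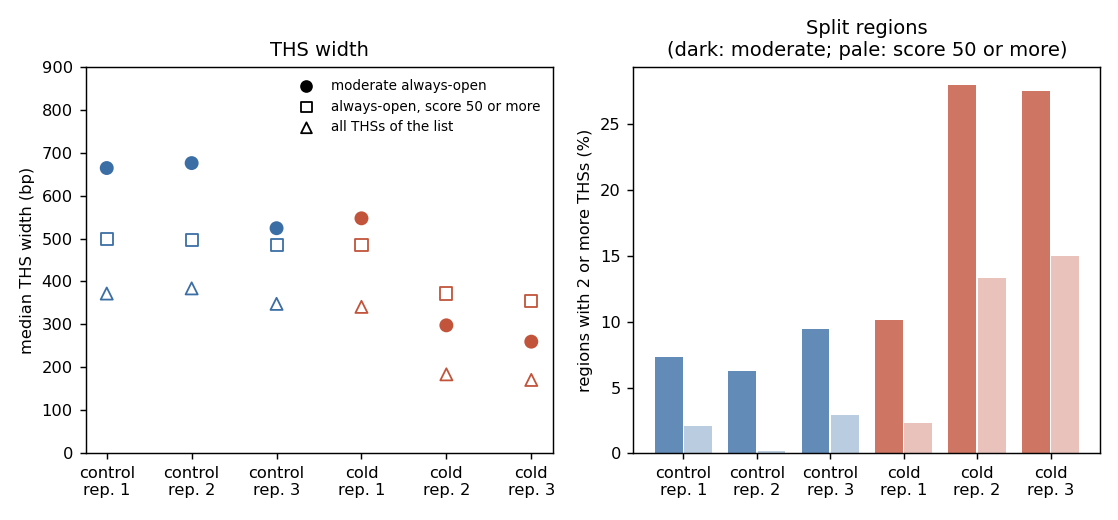
Left, median THS width (bp) in each library for moderate regions (filled circles), strong regions (squares) and all THSs of the list (triangles). Right, percentage of moderate (dark) and strong (pale) regions that held 2 or more THSs in a library, where the moderate share is 28.0 and 27.5% in cold replicates 2 and 3 and 6.28 to 10.1% in the other 4.

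Moderate regions were also broken into several THSs more often in cold replicates 2 and 3. The mean number of THSs per moderate region was 1.08, 1.07 and 1.10 in control replicates 1, 2 and 3 (1.08 ± 0.0179, SD, n = 3) and 1.11, 1.36 and 1.35 in cold replicates 1, 2 and 3 (1.27 ± 0.139). All 3 cold libraries were above all 3 control libraries, by little in cold replicate 1. The difference of 0.191 had an exact permutation p of 0.1, the smallest this design allows (two-sided, adjusted p = 0.2). It was 0.0301 in the 4 long-limit libraries and 0.0411 when each THS was cut to a window of 200 bp around its midpoint. A moderate region held 2 or more THSs in 172, 148 and 223 cases in control and in 238, 659 and 649 cases in cold. Among strong regions the share was 0.208 to 2.91% in the long-limit libraries and 13.3 and 15.0% in cold replicates 2 and 3.

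The breaks often overlapped between both short-limit libraries. In all, 900 moderate regions (38.2%) held 2 or more THSs in cold replicate 2 or 3, against 75 strong regions (15.6%), and 408 (17.3%) did so in both. Of the regions split in cold replicate 3, 62.9% were split in cold replicate 2, and 61.9% the other way round. There were 554 moderate regions (23.5%) that were split in a short-limit library and held a single THS in each of the 4 long-limit libraries. Exactly 2 THSs in both short-limit libraries were found in 247 moderate regions, and in 212 of these (85.8%) the gap of one library overlapped the gap of the other. The gaps had median lengths of 291 and 308 bp in cold replicates 2 and 3, and their midpoints were a median of 45.5 bp apart. The gap of cold replicate 2 lay inside 1 THS of control replicates 1, 2 and 3 in 72.5, 85.0 and 60.3% of the 247 and inside 1 THS of cold replicate 1 in 64.4%. Separate THSs of 1 list share a merged region only where THSs of other lists bridge the gap. High shares thus follow in part from the merging. No share expected from the merging alone was computed for these values or for the overlap of the gaps.

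The narrow THSs mostly sat within the broad ones. Of the THSs of moderate regions, 76.5% in cold replicate 2 and 79.1% in cold replicate 3 lay whole inside 1 THS of control replicate 1 or 2, against 62.5% in control replicate 3 and 60.7% in cold replicate 1. THSs that overlapped neither of these control libraries numbered 0 in control replicate 3, 6 in cold replicate 1, 21 in cold replicate 2 and 27 in cold replicate 3. By the rule every moderate region holds a THS of both control libraries, and its THSs are joined by overlap. Low counts are therefore set largely by the construction. Midpoints of the best THSs were a median of 48.5 to 62 bp apart between control libraries and 94 to 120.5 bp apart between a short-limit and a long-limit library. In strong regions the medians of the same pairs were 2.5 to 19 bp.

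Most moderate regions had a stretch open in every library. A common core, meaning positions inside a THS of all 6 lists, was present in 2054 (87.2%), with a median of 216 bp (interquartile range 142 to 322 bp, whole range 1 to 2123 bp). The merged region around it had a median of 881 bp, so the core filled a median of 28.0% of it. The strong regions all had a core, of a median 345 bp, which filled 84.3% of a median region of 517 bp. A core of at least 100 bp was found in 1825 moderate regions (77.5%). A single THS in every list was found in 1351 moderate regions (57.3%) and 405 strong regions (84.2%). Around the centre of the core, coverage of the moderate regions fell faster in cold replicates 2 and 3 than elsewhere. At 200 bp on the right side, 69.1, 68.6 and 59.6% of the 2054 were covered in control replicates 1, 2 and 3 and 61.0, 36.1 and 28.5% in cold replicates 1, 2 and 3. The left side was alike, with 28.3% in cold replicate 3 and 69.0% in control replicate 2 as the extremes.

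**Figure D4:**
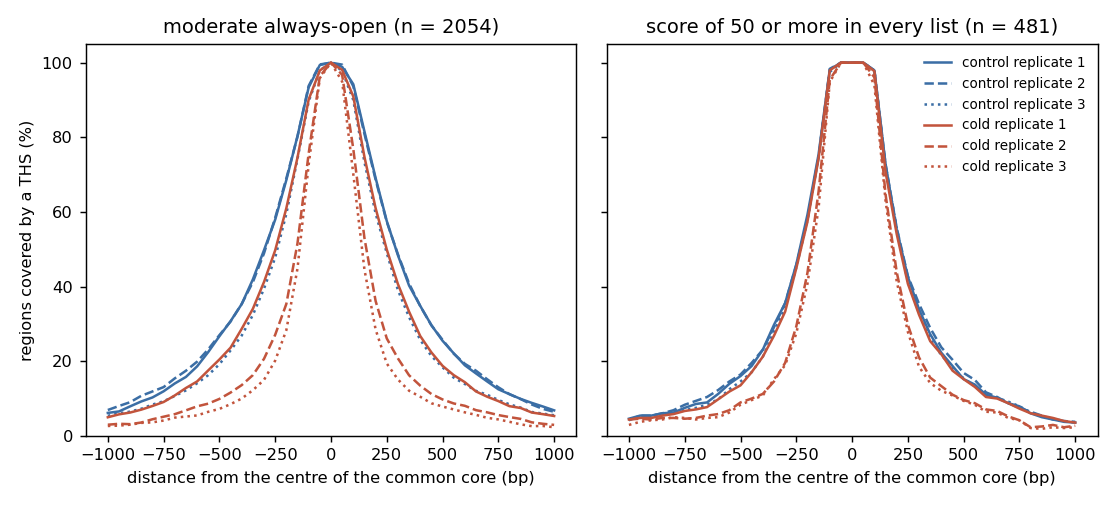
Percentage of regions covered by a THS against the distance from the centre of the common core (bp), per library, for the 2054 moderate regions with a core (left) and the 481 strong regions (right). The curves of cold replicates 2 and 3 are the narrowest, with 36.1 and 28.5% of moderate regions covered at 200 bp to the right.

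The remaining 302 moderate regions (12.8%) counted as open in all 6 libraries without any base shared by all of them. In 256 of these, all THSs of one list lay before those of another, and the regions were joined through the THSs of other lists. The widest such gap, 1341 bp, was in chr19:13984156-13986204, where the scores were 3.06, 4.29 and 4.99 in control and 5.47, 5.60 and 2.76 in cold and control replicate 2 had a THS of 1415 bp. Next were chr14:3583129-3585368 (1232 bp), chr13:22572517-22574468 (1213 bp) and chr3:6574118-6576099 (1080 bp). Their scores were all between 1.65 and 8.04. Always-open is thus a statement about the merged region and, in these, not about 1 site.

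Position was steadier where the score was higher. The share of moderate regions with a core was 51.1% at a lowest score under 3 (n = 364), 83.7% at 3 to 5 (n = 601), 96.4% at 5 to 10 (n = 661), 99.5% at 10 to 20 (n = 406) and 100% at 20 to 50 (n = 324). Over the same classes the merged region went from a median of 1028 bp to 631.5 bp. The start and end of the best THS spread over the 6 lists by a median of 729.5, 585, 456, 326.5 and 240 bp. Over the 4 long-limit lists alone the spread was 498, 376, 249, 158 and 93.5 bp. Core and edges were not used by the rule, but they come from the same calls as the score, so the trend is given with no test. The share with a lower percentile in every cold library was 19.8, 23.1, 24.4, 31.0 and 29.0% over the 5 classes. It was 26.0% of all always-open regions and 30.4% of strong regions, so the classes lay on both sides of the background.

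**Figure D5:**
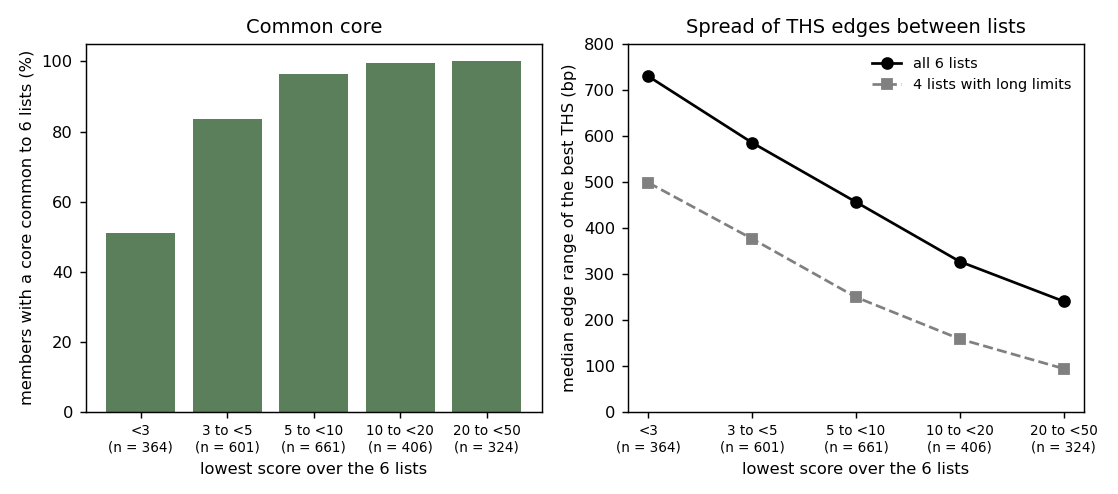
Moderate regions by their lowest score over the 6 lists. Left, percentage with a common core, from 51.1% under 3 to 100% at 20 to 50. Right, median spread of the edges of the best THS between lists (bp), over all 6 lists (circles, 729.5 to 240 bp) and over the 4 long-limit lists (squares, 498 to 93.5 bp).

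A small group of moderate regions had nearly fixed edges. With starts and ends within 25 bp in the 4 long-limit libraries, 133 moderate regions (5.65%) were found, against 303 strong regions (63.0%). Within 25 bp in all 6 libraries there were 37 (1.57%) against 181 (37.6%). Of the 133, 76 had a lowest score of 20 to 50 and none a score under 3. Their THSs were compact, with median widths of 340, 337 and 345 bp in control and 339, 276 and 263 bp in cold, against 679, 704 and 539 bp and 559, 300 and 260 bp in the other 2223. Equal widths in the 4 long-limit libraries follow from the selection. The short-limit libraries were not used in it, and their median widths there differed from the long-limit ones by less than in the other regions. The fixed-edge regions also stood further from other open sites, with a median of 2.70 kb to the nearest region against 1.59 kb for the other moderate regions. All 3 cold percentiles were below all control ones in 53 of them (39.8%), against 26.0% of all always-open regions, a share given as a description since these regions score higher than the rest. The tolerance of 25 bp was chosen after seeing the data.

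The largest moderate regions were compounds of many THSs. In chr3:3267070-3272888, 5819 bp long, 19 THSs were listed, with 1, 2 and 1 in control and 2, 6 and 7 in cold. Its best THS was 5701, 4041 and 4776 bp wide in control and 3962, 878 and 463 bp in cold, so a stretch covered by 1 or 2 broad THSs in the long-limit libraries held 6 and 7 in the short-limit ones. In chr2:16105867-16110519, also with 19 THSs, the libraries did not divide in this manner, with 5, 4 and 1 THSs in control and 4, 4 and 1 in cold. There the 3 cold scores (6.62, 5.21 and 4.26) were below the 3 control scores (11.9, 11.5 and 10.7). The next, chr13:15407151-15409924 and chr13:14039516-14043055, held 18 and 17 THSs.

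The widest stretches open in all libraries were 1797 to 2123 bp long. The widest core, of 2123 bp, was in chr3:3293949-3299260, a region of 5312 bp with 4 and 3 THSs in cold replicates 2 and 3, where the scores were 43.5, 50.9 and 44.8 in control and 29.7, 26.8 and 15.7 in cold. In chr11:17279088-17281112 a single THS of 1851 to 2020 bp was called in every library, the short-limit ones included, and the core was 1850 bp. Its scores were 30.9, 36.9 and 25.04 in control and 26.8, 28.9 and 16.1 in cold. The other wide cores were 1839 bp in chr12:11788586-11790940 and 1797 bp of 3588 bp in chr10:12613944-12617531.

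Moderate regions were spread over all 19 chromosomes, unevenly. Chromosome 9 held the most (192, 8.15%), followed by chromosomes 12 (183) and 16 (182), and chromosome 8 held the fewest (66), followed by chromosomes 6 (70) and 1 (75). Per Mb of the span covered by the lists this was 8.35 on chromosome 9 and 2.95 on chromosome 8. As a share of all regions on a chromosome, the moderate ones were 8.07% on chromosome 9 and 3.74% on chromosome 8. The split between moderate and strong also varied, since moderate regions were 91.0% of the always-open regions on chromosome 16 and 70% on chromosome 6. No test was run over chromosomes.

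Along the chromosomes moderate regions often had other open sites near them. The median distance to the nearest other region was 1.66 kb, with 933 (39.6%) within 1 kb, close to the 1.86 kb and 37.3% of any region on chromosomes 1 to 19. Strong regions stood further from other sites, with a median of 5.93 kb and 19.5% within 1 kb. The nearest other moderate region was a median of 22.1 kb away (interquartile range 4.98 to 89.1 kb), and 258 (10.95%) had one within 1 kb. From any region of the lists the nearest moderate region was a median of 78.0 kb away. The nearest strong region was a median of 316 kb away, and 25 moderate regions had one within 1 kb. Strong regions are fewer (481), and their own nearest strong neighbour was a median of 231 kb away. The distance from any region of the lists to the nearest strong one was not computed.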

How the data were processed

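Per the methods of the study, the authors mapped Cutadapt-trimmed reads by BWA (build 12X of grape, version 2.1), kept unique reads, removed duplicates and called THSs per library with MACS2 (q threshold 0.05, no model, extension 200 bp). Tool versions: not given in the sources used here. The deposited score was taken to be a −log10 q-value, inferred from the values, since the lists have no column names and their lowest scores were 1.30 to 1.31. Scores depend on depth and were not scaled by the authors between libraries.

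Coordinates count from 1. Regions were merged in pandas 2.3.3 (numpy 2.4.6, Python 3.11.15), checked against bedtools 2.31.1 (44710 regions in both) and tested on simulated data. Plots used matplotlib 3.10.9. Groups came from the labels. Library values were compared in two-sided exact permutation tests over all 20 assignments, and p-values of the 2 measures were adjusted by Benjamini-Hochberg. Peak lists hold no read counts, so no count test was run. Percentiles are ranks of a score within its list, with tied scores given their mean rank, as a percentage of the number of THSs.

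Regions were named by extremes: nearest to the limit on each side, lowest score, widest and narrowest percentile range, widest gaps between groups, most THSs, widest core and, without a core, widest gap. Members, lists and tests were chosen with earlier results of these data known. No genome sequence or annotation of this build was used, so genes, sequences, motifs and the leaf label were not analysed here.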

Additional observations from a re-analysis of the deposited data

How the results depend on the processing

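Of 103 values recomputed under other settings, 17 moved by more than the spread or, for counts, by over 1.5 times. Only the tested differences, in width and in THSs per region, could be marked as reversed, and 0 of them were. The percentile difference and the counts could only be marked as moved or not, whatever their direction. The other 86 include tested differences that kept their direction but not their size. Width differed by -74.2 bp and THSs per region by 0.0301 in the 4 long-limit libraries, and the latter by 0.0411 in windows of 200 bp. No tested difference could change its side of the significance threshold, since so few libraries cannot give a p below 0.1. A replicate block leaves the differences themselves unchanged by construction. With windows of 200 bp around THS midpoints, 1762 regions were moderate and 1034 of them had a core. The difference in median percentile was -2.49 in deposited score units, -0.282 by rank among always-open regions and -4.08 in the 4 long-limit libraries. The count of regions lower in every cold library was 359 by score, 154 by rank and 906 in the long-limit libraries, against 592 in the main setting. The count higher was 31, 159 and 126, against 7. By rank, lower regions were thus no longer in excess. Leaving out 1 library gave 646 to 1427 lower and 9 to 43 higher regions. Counts without a library and in the long-limit libraries have no matching share over all always-open regions. The rank and the long-limit settings were added after seeing the data. The cause of these moves was not tested. Fewer libraries let more regions pass by construction, and the part of this in the counts was not computed.

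The number of moderate regions was 2186 at a limit of 30, 2448 at 70, 2267 with scores of at least 2, 2376 with merging within 200 bp, 2930 on all sequences and 2409 to 2835 with 1 library left out. The difference in width was -342 to -199 bp without 1 library (exact permutation p between 0.1 and 0.3). With a replicate block the width difference of -253 bp and the THS difference of 0.191 each had an exact sign-flip p of 0.25, the smallest that 3 pairs allow. Percentile deviations of same-numbered libraries from their group means showed little correlation across the moderate regions (r = -0.0109, -0.0495 and -0.0252). Such values cannot settle whether same-numbered libraries were handled together. Windows fix the width, so that setting has no value for it. Scores near the q threshold were not set against read numbers.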
